A study of Mus musculus with 3 samples.

Results

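The Sox2 locus was examined in ATAC-seq peak lists from mouse embryonic stem (ES) cell derivatives. SOX2 is a transcription factor of the SOXB1 family that binds DNA with the POU factor OCT4 and holds ES cells and the early epiblast in a pluripotent state. It is later needed in neural progenitors, and WNT-driven exit towards the primitive streak is accompanied by its decrease. Sox2 is a gene with a single exon. It lies inside the long noncoding transcript unit Sox2ot, is flanked by short nearby enhancers, and in ES cells depends on a distal enhancer cluster far downstream, the Sox2 control region.

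Members were chosen by position only. They were all peaks that overlapped the Sox2 gene body or the 150 kb on either side of it, with gene models from GENCODE M21 on mm10. Sox2 (ENSMUSG00000074637.7) occupies 34650405 to 34652461 of chromosome 3 on the plus strand, so the window ran from 34500405 to 34802461. It held 58 of the 391711 peaks in 3 lists, with 19 of 129843 for SOX2-ON, 18 of 131520 for SOX2-OFF and 21 of 130348 for CEpiLC. Peaks that shared at least 1 base were merged, which gave 30 regions of 219488 in all. Regions are named here by the distance of their middle from the annotated Sox2 start, with negative distances upstream.

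ATAC-seq maps exposed DNA by the cuts of a transposase, here in 50000 cells per sample after 72 h of differentiation. All samples derived from HM1 TetON cells (strain 129), which express the doxycycline-dependent activator from Rosa26, and received 10 ng/ml bFGF and 5 µM LGK974, an inhibitor of WNT secretion, and for the last day also CHIR99021, which activates WNT signalling through GSK3 inhibition. CEpiLC were caudal epiblast-like cells of this wild type parental line, without doxycycline. SOX2-ON and SOX2-OFF were Sox2-/- cells of an edited line (SOX2 TetON), grown from clones picked after editing, in which both copies of the endogenous gene were disrupted by gene editing. They also carried a doxycycline-inducible Sox2 transgene in the Hprt locus. Doxycycline at 1 µg/ml was maintained in SOX2-ON and withdrawn for differentiation in SOX2-OFF. Each group was 1 sample, so no spread between replicates exists, no p-value was calculated and every difference below is between libraries. Setting SOX2-ON beside SOX2-OFF addresses accessibility with induction of SOX2 maintained or withdrawn. The authors reported low levels of SOX2 and Sox3 in SOX2-OFF cells in this medium, so SOX2-OFF is not free of SOX2. The comparison of each with CEpiLC sets the edited line beside the wild type.

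Peak strength is given as a rank within each list by the authors' −log10 p, where rank 1 is the strongest. The raw values grow with depth and are not comparable between lists: the peak at rank 20000 had a −log10 p of 26.4 in SOX2-ON against 21.2 in SOX2-OFF and 10.6 in CEpiLC. Where a list lacked a peak, the site was below detection in that library, which does not show that it was closed. Peaks were in excess on chromosomes 6 and 8 in SOX2-ON and SOX2-OFF and on chromosome 11 in CEpiLC, between 3.00 and 3.98 times the median of the other autosomes, which takes up rank positions in each list. Chromosome 3 held 0.777 times that median for SOX2-ON, 0.893 times for SOX2-OFF and 0.789 times for CEpiLC.

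The sequences on which the description turns come from the GRCm38.p6 reference (the mm10 build) and are written 5′ to 3′ on the plus strand. The reference is not of strain 129. Capitals mark matches on either strand to 10 short words, which are spelled out with the motif counts. The first sequence is the 250 bases before the RefSeq start of Sox2, chr3:34649745-34649994, from the RefSeq promoters of that build, shown because every list had a peak over it. RefSeq places this start 410 bases upstream of the GENCODE start.

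Sox2 promoter: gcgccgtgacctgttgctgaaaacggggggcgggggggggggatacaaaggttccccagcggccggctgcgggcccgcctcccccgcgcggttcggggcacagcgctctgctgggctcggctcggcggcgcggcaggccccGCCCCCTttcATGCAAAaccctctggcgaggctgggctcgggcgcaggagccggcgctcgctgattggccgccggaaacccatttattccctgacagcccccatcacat

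It holds the octamer-like POU word ATGCAAA, 99 bases before the RefSeq start, and a CTCF word. Over the same 250 bases of 32851 RefSeq promoters, 4.12% held the POU word and 13.98% a CTCF word.

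The next sequences come from the distal enhancer cluster, and each is the centre of the longest stretch that peaks of all 3 lists covered. At +107 kb that stretch holds the wider but weaker of the CEpiLC peaks, with rank 48052. They lie at chr3:34756466-34756765 and chr3:34761277-34761576, outside every annotated gene of the window.

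Region at +107 kb: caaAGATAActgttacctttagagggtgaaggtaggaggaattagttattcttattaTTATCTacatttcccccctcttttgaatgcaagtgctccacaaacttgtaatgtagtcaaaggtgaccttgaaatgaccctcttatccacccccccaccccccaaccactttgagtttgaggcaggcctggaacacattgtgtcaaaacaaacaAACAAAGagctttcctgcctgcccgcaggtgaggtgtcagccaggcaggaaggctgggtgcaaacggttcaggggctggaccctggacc

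Region at +111 kb: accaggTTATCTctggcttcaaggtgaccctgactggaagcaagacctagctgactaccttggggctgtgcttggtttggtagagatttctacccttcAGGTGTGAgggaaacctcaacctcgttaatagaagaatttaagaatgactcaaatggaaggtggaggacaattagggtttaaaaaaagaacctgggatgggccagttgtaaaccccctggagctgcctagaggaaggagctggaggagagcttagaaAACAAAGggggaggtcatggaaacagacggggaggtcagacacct

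Both stretches hold a SOX word and at least 1 GATA word, and that at +111 kb also holds a T-box word. The last stretch, chr3:34692088-34692387 between genes, belongs to the region at +42 kb, the only shared region whose rank differed 2-fold between lists. It holds none of the 10 words, although the region has a CDX/HOX word that starts at 34691979, under the SOX2-OFF peak alone.

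Region at +42 kb: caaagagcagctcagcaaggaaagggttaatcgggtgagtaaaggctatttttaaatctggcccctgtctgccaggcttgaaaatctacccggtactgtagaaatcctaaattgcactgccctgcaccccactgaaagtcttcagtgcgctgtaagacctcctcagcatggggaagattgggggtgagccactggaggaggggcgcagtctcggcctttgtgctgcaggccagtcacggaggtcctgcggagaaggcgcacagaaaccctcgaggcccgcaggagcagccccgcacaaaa

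The window was richer in peaks than chromosome 3 as a whole in each list. Peaks covered 17069 bp (5.65%) of it for SOX2-ON, 17215 bp (5.70%) for SOX2-OFF and 15671 bp (5.19%) for CEpiLC, against 2.51%, 3.24% and 2.50% of chromosome 3. The density was 62.9 peaks per Mb for SOX2-ON, 59.6 for SOX2-OFF and 69.5 for CEpiLC, against 31.9, 36.6 and 35.8 per Mb over the chromosome. The lists therefore differed little in how much of the locus they called open, and the widest peak of each was between 2650 and 2783 bp.

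**Figure D1:**
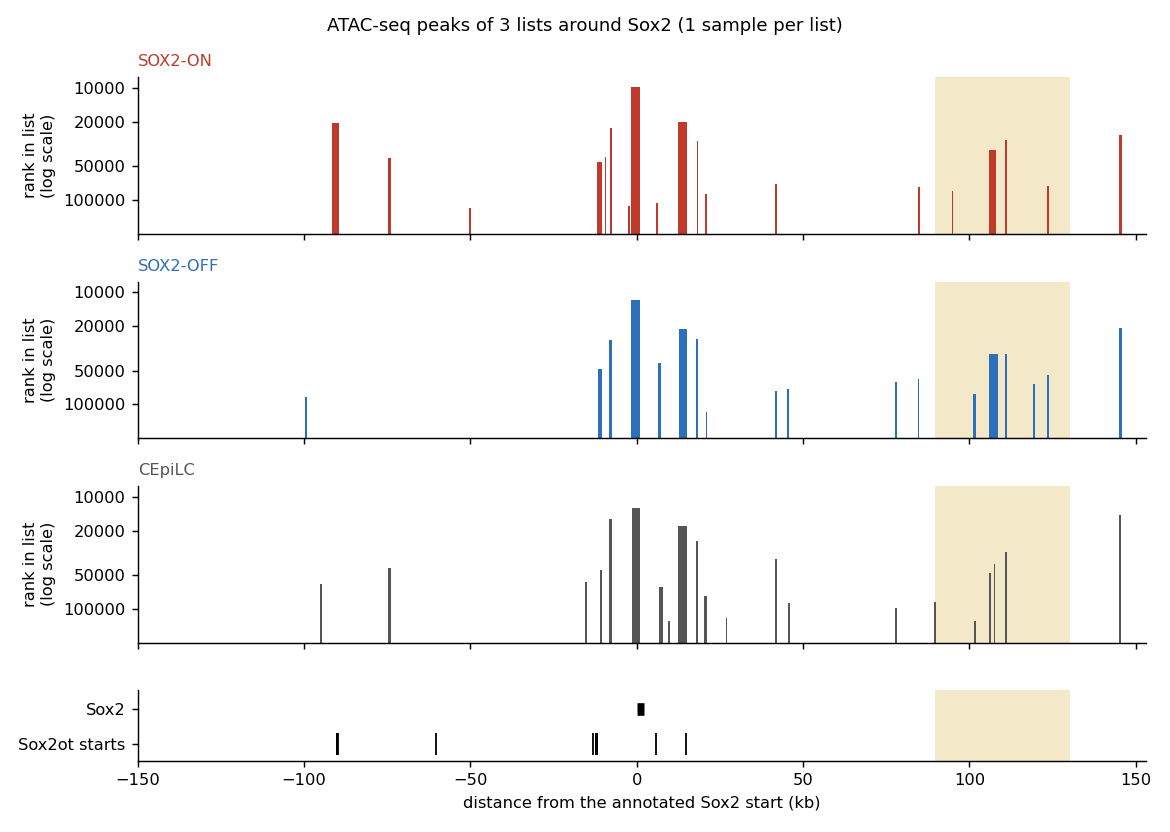
Peaks of the SOX2-ON, SOX2-OFF and CEpiLC lists (1 sample each) against distance from the annotated Sox2 start in kb. Bar height is the rank within the list on a log scale drawn up from rank 200000, with stronger peaks taller, and peaks narrower than 0.5 kb are drawn at that width. The shaded stretch runs from 90 to 130 kb downstream, and ticks at the bottom mark Sox2ot starts. The bar at the Sox2 start is the tallest in every list, and a wide bar near −90 kb stands only in SOX2-ON.

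Of the 30 regions, 10 were present in all 3 lists, against 27.0% of all merged regions of the genome. A further 2 were shared by SOX2-ON and SOX2-OFF only (10.5% genome-wide), 1 by SOX2-ON and CEpiLC only (3.28%) and 4 by SOX2-OFF and CEpiLC only (6.92%). Regions found in a single list numbered 6 for SOX2-ON (16.9%), 2 for SOX2-OFF (15.1%) and 5 for CEpiLC (20.3%). Each count lay within 3 regions of the number its genome-wide share would give, and none is read as particular to the locus. The bases under peaks overlapped to a similar degree in each pair of lists: shared over joint bases came to 0.506 for SOX2-ON with SOX2-OFF, 0.473 for SOX2-ON with CEpiLC and 0.510 for SOX2-OFF with CEpiLC. Over all chromosomes the same ratios were 0.420, 0.348 and 0.376, and over chromosome 3 they were 0.413, 0.386 and 0.435.

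By the median, regions found in all 3 lists were wider than those found once. Single regions departed from this, with 2157 bp at −91 kb in 1 list and 544 bp at +42 kb in all 3. The median merged width was 1027 bp for the 10 shared regions, 632 bp for the 7 in 2 lists and 296 bp for the 13 in 1 list. Merging itself widens a region with each list that adds to it. Of the 13 single-list regions, 11 ranked beyond 50000 in their list, down to rank 128772. The other two, at −91 kb and −9 kb, were both in SOX2-ON.

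By stretch, and beside the 27.0% of regions genome-wide, the shared regions were as follows. None of the 5 regions between −150 and −20 kb was in all lists, against 6 of the 12 between −20 and +25 kb, 1 of the 6 between +25 and +90 kb, 2 of the 6 between +90 and +130 kb, and the single region beyond that. The upstream stretch held 3 peaks covering 3349 bp in SOX2-ON against 1 peak of 226 bp in SOX2-OFF and 2 peaks covering 1388 bp in CEpiLC. The stretch around the gene held 9, 7 and 9 peaks covering 8927, 8918 and 10083 bp in the same order.

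By −log10 p, the region over the Sox2 start was the strongest of the locus in every list. Its peak ranked 9717 for SOX2-ON, 11791 for SOX2-OFF and 12565 for CEpiLC, which placed it in the strongest 7.48%, 8.97% and 9.64% of the lists. By fold enrichment over local background, the values were 3.00 in SOX2-ON against 2.52 in SOX2-OFF and 2.46 in CEpiLC. The order of the ranks depended on the measure, since ranking by fold enrichment gave 16838 for SOX2-ON, 16789 for SOX2-OFF and 14046 for CEpiLC. Under either measure the 3 ranks lay within 1.30-fold of each other, which is short of the 2-fold difference counted below.

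The start peak had nearly the same edges in each list. It was 2559 bp wide in SOX2-ON against 2571 bp in SOX2-OFF and 2567 bp in CEpiLC, a spread of 12 bp, and 2497 bp were common to all. These widths were 4.12, 3.47 and 4.88 times the median peak width of the lists (621, 741 and 526 bp), in the widest 1.29% of SOX2-ON, 3.20% of SOX2-OFF and 1.38% of CEpiLC peaks. The peak reached 1627 bp upstream of the GENCODE start in SOX2-ON and SOX2-OFF and 1565 bp in CEpiLC. It was centred close to the RefSeq start, with its middle 62.0 bp downstream of it for SOX2-ON, 68.0 bp for SOX2-OFF and 128 bp for CEpiLC.

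The same peak ran into the gene. It covered 932 of the 2057 bp of the annotated gene in SOX2-ON against 944 in SOX2-OFF and 1002 in CEpiLC, so it included 921, 933 and 957 bp of the coding sequence (34650416 to 34651372). The edited line also carries Sox2 coding sequence in its transgene, and reads from the transgene and from the endogenous exon cannot be told apart in these lists. The guide used to disrupt endogenous Sox2 targeted the start of the coding sequence, and the transgene was protected from it by a silent change, G54A, counted from the first coding base, that removes the PAM. The reference around this base is shown with the G in capitals, at chr3:34650455-34650481. It was located by matching the mutagenesis primer of the study to the gene, with this base as the only difference, and it lay under the peak in all lists. The guide sequence itself did not match the reference over its whole length and is not shown.

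Protected base in the transgene: ccgcagcaagcttcGgggggcggcggc

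The disruption could not be checked in the peak lists, which carry no read sequences. Immediately downstream, no list had a peak over the remaining part of the gene or anywhere in the 4941 bp after the start peak. Upstream, the nearest peak in SOX2-OFF and CEpiLC was at least 5877 bp away, and SOX2-ON had a narrow peak of 180 bp at −2.37 kb with rank 112156.

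Around the gene, the next strongest regions were those at +14 kb and −8 kb. The region at +14 kb, over a Sox2ot start and the start of the unclassified transcript Gm42693, ranked 20078 for SOX2-ON, 21300 for SOX2-OFF and 18065 for CEpiLC. It was as wide as the start peak, with 2650, 2489 and 2675 bp. The region at −8 kb, within a Sox2ot intron, ranked 22915 in SOX2-ON against 26561 in SOX2-OFF and 15768 in CEpiLC. It was narrower, with 616, 901 and 754 bp. CEpiLC had the highest rank in both, by less than 2-fold, although ranking by fold enrichment put the region at −8 kb past it against SOX2-OFF (14041 against 28480).

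At +18 kb, in an intron of Sox2ot, the ranks were 29614 for SOX2-ON, 26255 for SOX2-OFF and 24734 for CEpiLC, while the width was 256, 551 and 592 bp. The SOX2-ON peak lacked the upstream part of the region, in which a POU word starts at 34668310 and a TCF/LEF word at 34668455. TCF/LEF factors carry the nuclear WNT response. Broad calling joins or splits neighbouring sites, and whether this difference in width arose in calling was not tested. At −11 kb, over the microRNA gene Mir1897 and a Sox2ot start, the ranks were 45815, 48275 and 45133 and the widths 1489, 1319 and 521 bp. There the SOX2-ON peak alone lay over the annotated starts, although the SOX2-OFF peak came within 500 bases of them. At +21 kb, the weakest shared region ranked 88928, 117479 and 76060.

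**Figure D2:**
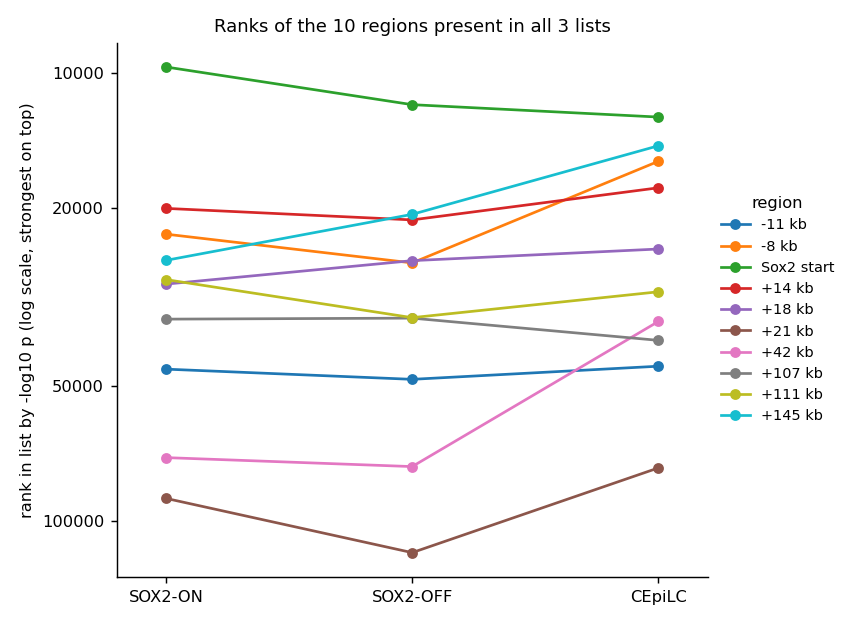
Rank within each list by −log10 p (log axis, strongest on top) of the 10 regions present in the SOX2-ON, SOX2-OFF and CEpiLC lists, with a line for each region. Most lines are nearly level; the region at +42 kb climbs from 72141 and 75540 to 35874 in CEpiLC, and the Sox2 start stays at the top in every list.

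A region was counted as ranked higher in a list when its rank number there was at most 1 over 2 of that in the other list. Between SOX2-ON and SOX2-OFF, none of the 12 regions in both lists met this in either direction, against 6.03% of such regions genome-wide for higher in SOX2-ON and 6.68% for higher in SOX2-OFF. Between SOX2-ON and CEpiLC, 0 of 11 ranked higher in SOX2-ON (9.46% genome-wide) and 1 ranked higher in CEpiLC (12.8%). Between SOX2-OFF and CEpiLC, 0 of 14 ranked higher in SOX2-OFF (6.64%) and 1 ranked higher in CEpiLC (6.30%). With 11 to 14 regions, counts of 0 and 1 are close to these shares.

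Over the 10 regions in all lists, the ratio of the SOX2-OFF rank to the SOX2-ON rank ranged from 0.790 to 1.32 with a median of 1.06. The genome-wide median over regions in all lists was 0.892. The ratio of the CEpiLC rank to the SOX2-ON rank had a median of 0.878 (0.900 genome-wide) and a range of 0.497 to 1.29. The rank in CEpiLC over that in SOX2-OFF had a median of 0.862 (1.02 genome-wide) and a range of 0.475 to 1.12.

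The region counted in both comparisons with CEpiLC was that at +42 kb. It ranked 72141 in SOX2-ON against 75540 in SOX2-OFF and 35874 in CEpiLC. Its fold enrichment was 1.67, 1.58 and 1.94, and its width 447, 544 and 337 bp. The 2 lists of the edited line were alike and CEpiLC stood apart, but the difference sat at the limit of the rule. Without chromosomes 6, 8 and 11 the rank ratios were 0.521 against SOX2-ON and 0.514 against SOX2-OFF, and the call was lost. Ranked within chromosome 3 they were 0.485 and 0.459, and by fold enrichment 0.466 and 0.448, so there the call was kept. No gene of the annotation overlaps the region.

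The region at +145 kb lay beyond the enhancer cluster and outside every annotated gene. It ranked 26214 for SOX2-ON, 20701 for SOX2-OFF and 14560 for CEpiLC, and was 802, 867 and 657 bp wide. In CEpiLC it ranked next to the Sox2 start within the locus. Ranked by fold enrichment the values were 23429, 16709 and 10941, so that CEpiLC passed the 2-fold rule against SOX2-ON. By that measure it ranked above the Sox2 start in SOX2-OFF and CEpiLC, as the region at −8 kb did in CEpiLC with 14041 against 14046.

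The distal cluster, taken as 90 to 130 kb downstream of the Sox2 start, held 6 regions. It had 4 peaks covering 3350 bp in SOX2-ON against 5 covering 5108 bp in SOX2-OFF and 4 covering 1950 bp in CEpiLC. Its best peak ranked 28935, 35176 and 30806 in that order, well behind the Sox2 start in each list. In 2 of its regions, those at +107 and +111 kb, all lists had a peak.

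The region at +107 kb (34756245 to 34759029) ranked 35445 for SOX2-ON, 35264 for SOX2-OFF and 39523 for CEpiLC. Its left edge was fixed to within 3 bp over the lists. The extent differed, with 1 peak of 2054 bp in SOX2-ON against 1 of 2783 bp in SOX2-OFF and separate peaks of 736 and 378 bp in CEpiLC with 755 bp between them. The SOX2-ON and SOX2-OFF peaks were 3.31 and 3.76 times the median width of their lists, against 1.40 for the wider CEpiLC peak. The CEpiLC list was the weakest at matched ranks, as given above for rank 20000, and its part in this split was not tested.

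The region at +111 kb (34761030 to 34761617) ranked 28935 for SOX2-ON, 35176 for SOX2-OFF and 30806 for CEpiLC. It was the strongest of the cluster in all 3 lists, and it was narrow, with 576, 307 and 482 bp. Fold enrichment was 2.16, 1.93 and 1.97. Ranked by fold enrichment the positions were 33338, 33898 and 29653, so the lead of SOX2-ON rested on the −log10 p.

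The other regions of the cluster were weak and their presence varied. The region at +95 kb was found in SOX2-ON alone at rank 82928, and that at +119 kb in SOX2-OFF alone at rank 66356. The region at +102 kb was in SOX2-OFF at rank 80250 and in CEpiLC at rank 127087, near the end of that list. The region at +124 kb, in an intron of the long noncoding RNA gene Gm38509, was in SOX2-ON at rank 74234 and in SOX2-OFF at rank 54536. None of these lay in the strongest 50000 of any list.

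**Figure D3:**
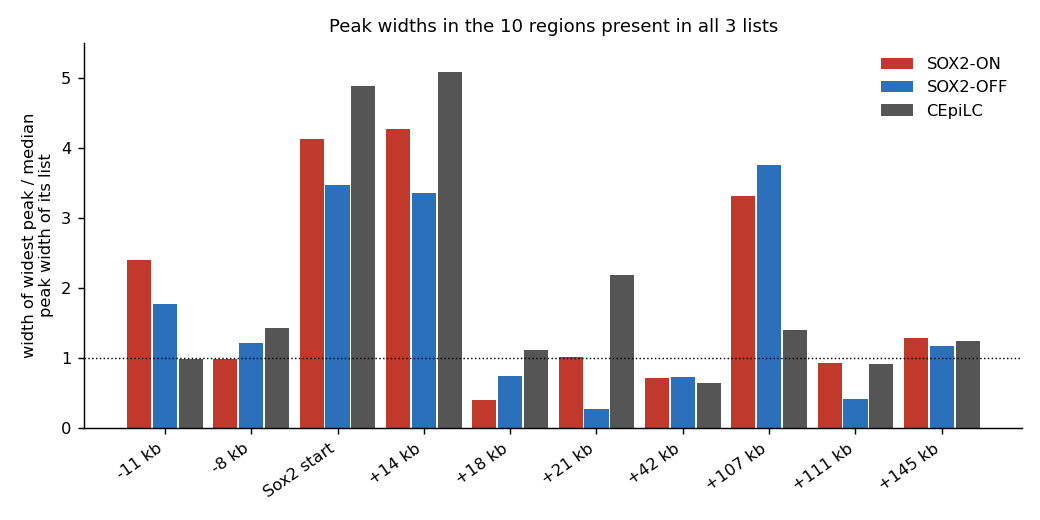
Width of the widest peak in each of the 10 regions present in all lists, divided by the median peak width of its list (621 bp in SOX2-ON, 741 bp in SOX2-OFF, 526 bp in CEpiLC), with a bar per sample. The Sox2 start and the region at +14 kb exceed 3 times the median in all lists, whereas the region at +107 kb does so in SOX2-ON and SOX2-OFF but reaches 1.40 in CEpiLC.

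The clearest difference in presence lay upstream, at −91 kb. This region and those at −74, −11, −9, +7, +18 and +21 kb were not named by the rule for regions described in full and were singled out after their values were seen, as was the narrow peak at −2.37 kb. SOX2-ON had a peak of 2157 bp at 34558790 to 34560946, with rank 20630, fold enrichment 2.83 and −log10 p 25.1, and neither SOX2-OFF nor CEpiLC had a peak overlapping it. It was in the widest 2.83% of the SOX2-ON list, and at the locus 2 SOX2-ON peaks ranked above it, those at the Sox2 start and at +14 kb. It covered 5 of the 13 Sox2ot starts annotated in the window, at 34560328 to 34560716, and the start of the small RNA gene Gm27403. SOX2-ON peaks lay over 7 of the 13 Sox2ot starts, against 1 in SOX2-OFF and 1 in CEpiLC. These starts are not separate sites, since 5 of the 7 lay under the peak at −91 kb. Another was in the region at −11 kb, where the SOX2-OFF peak came within 500 bases of it. The last was at +14 kb, under a peak in every list. No genome-wide share was computed for this count. Sox2ot is transcribed in the same direction as Sox2 and spans it.

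Peaks of this kind were common in SOX2-ON. Of all regions among the strongest 50000 of SOX2-ON, 13.6% were absent from both other lists, and at the locus 2 of 11 were, those at −91 and −9 kb. The corresponding shares were 2.95% for SOX2-OFF, with 0 of 9 at the locus, and 7.24% for CEpiLC, with 0 of 10. Among regions ranked 20001 to 30000 in SOX2-ON, 16.7% were absent from both other lists, and at the locus 1 of 6 was. The region at −91 kb was therefore 1 of 1651 such regions in that band of ranks.

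Weaker differences of presence surrounded the gene. At −9 kb SOX2-ON alone had a peak, of 296 bp with rank 41297. At −74 kb, in a Sox2ot intron, SOX2-ON ranked 41718 and CEpiLC 43182 with near-equal widths of 881 and 805 bp, and SOX2-OFF had no peak. It was the only region of the locus in SOX2-ON and CEpiLC but not in SOX2-OFF. At +7 kb SOX2-OFF ranked 43046 and CEpiLC 64040, and SOX2-ON had no peak there but a weak one of rank 105304 that ended 300 bp before it.

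**Figure D4:**
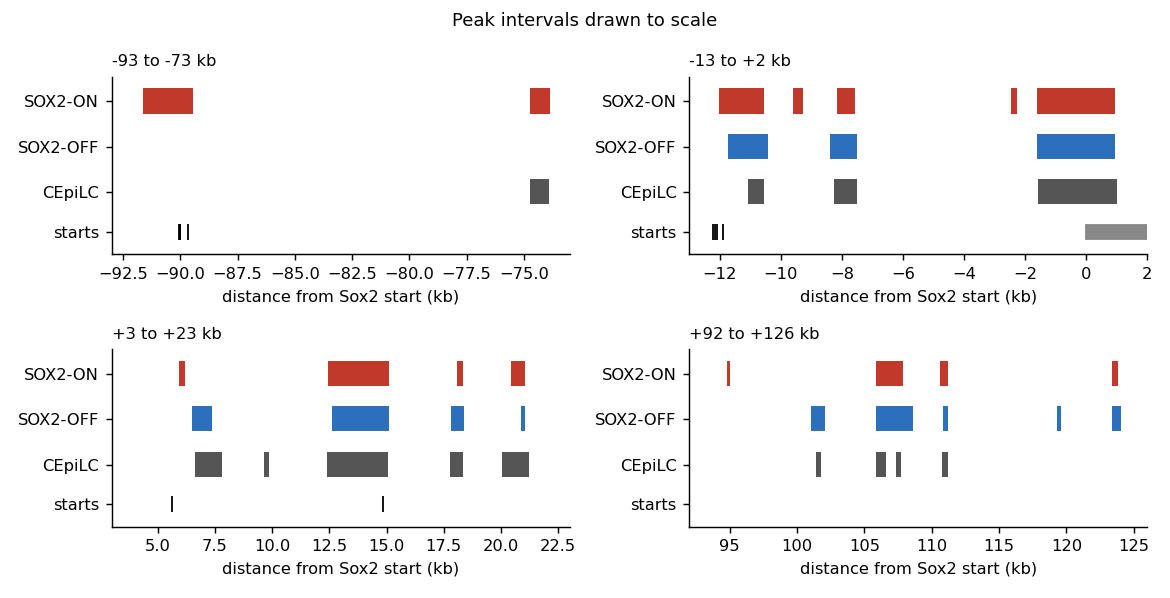
Peak intervals of the 3 lists drawn to scale against distance from the Sox2 start in kb, in 4 stretches of the locus, with ticks for Sox2ot starts and a grey bar for the Sox2 gene. The 2157 bp peak over Sox2ot starts near −90 kb is drawn in SOX2-ON alone, the peaks at the Sox2 start have matching edges, and the +107 kb region is a single interval in SOX2-ON and SOX2-OFF and split in CEpiLC.

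Short sequence words were counted in the 300 bases centred on the middle of each region, on both strands and without mismatches. In regions narrower than 300 bp this window also took in bases beside the region. The SOX word was written as AACAATG with the variant form AACAAAG, and the POU word as ATGCAAA. The joined OCT-SOX core was written as GCATNACAA, where N is any base, the TCF/LEF word as CTTTGAT and the KLF word as CCACACCC. The CDX/HOX word was TTTATNG, the T-box word TCACACCT, the FOXH1 word TGTGGATT and the GATA word AGATAA. For CTCF, whose full motif is longer, the core AGGGGGC and its variant form AGGTGGC were both accepted. As spelled here, no stretch can match both the SOX and the TCF/LEF word at the same position and strand. The words still resemble each other, since AACAAAG reads CTTTGTT on the other strand, 1 base away from CTTTGAT. A match to AACAAAG therefore does not tell a SOX site from a TCF/LEF site. A match is a description of the sequence and not of binding. The SOX word was in 2 of 30 regions, at −2 and +102 kb, against 12.5% of all merged regions, and the POU word in 0 (5.38%). The OCT-SOX core was in 0 (0.965%), and allowing 1 mismatch gave 6 of 30 against 18.4% of all regions. GATA, CTCF and CDX/HOX words were each in 6 of 30, against 14.0%, 12.5% and 11.04%. The CTCF word counted at −2 kb lay beside that region and not within it. The T-box word was in 2 of 30 (1.66%), at +78 and +111 kb, TCF/LEF in 1 (4.98%), and KLF and FOXH1 in 0 (3.21% and 1.18%).

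The central window missed words that lay elsewhere in the following regions. Over its whole length, the region at +107 kb held 2 SOX words, at 34756677 and 34758076, 5 GATA words, 3 CDX/HOX words, 1 KLF word and 1 TCF/LEF word. Each of these SOX words lay under a separate CEpiLC peak. The region at +111 kb held 1 SOX word, at 34761532, within the peaks of all lists. The region over the Sox2 start held 1 SOX word at 34649535, 1 POU word at 34649896 and 2 CTCF words. At +102 kb a POU, a SOX, a TCF/LEF and a GATA word lay under the SOX2-OFF peak, and the narrower CEpiLC peak covered the SOX and GATA words but not the other two. The regions at −15 and +90 kb, found in CEpiLC alone, each held a SOX word outside the window, at 34634876 and 34740241.

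The Sox2 promoter was set beside promoters of its SOXB1 relatives and of genes in the OCT4, SOX2 and NANOG network, taking for each gene the best peak within 500 bases of any annotated start. All 12 listed genes had a promoter peak in every list. Among SOXB1 relatives, Sox1, a neural progenitor factor, ranked 11741 in SOX2-ON against 16422 in SOX2-OFF and 19482 in CEpiLC. Sox3, which shares targets with Sox2, ranked 17865, 18801 and 16711. Sox2 thus ranked above both in every list. Sox3 lies on chromosome X and the parental line is XY, and the part of copy number in its rank was not tested.

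In the network, Pou5f1, which encodes OCT4, ranked 8255 for SOX2-ON, 10220 for SOX2-OFF and 13680 for CEpiLC. Nanog, the homeodomain factor of naive pluripotency, ranked 15552, 16815 and 22031. Fgf4, a growth factor gene activated by SOX2 with OCT4, ranked 12032, 13882 and 16627. By −log10 p, the rank of these 3, as of Sox2, was highest in SOX2-ON and lowest in CEpiLC. Utf1 and Zfp42, markers of undifferentiated cells, had the same order, with 9432, 10070 and 16216 for Utf1 and 7119, 7995 and 9121 for Zfp42. Of these 5 genes only Fgf4 kept the order when ranked by fold enrichment, with 17055, 17269 and 19144. By that measure Pou5f1 ranked 20810, 19520 and 21995, Nanog 26023, 30088 and 24316, Utf1 15297, 12558 and 19908, and Zfp42 8112, 7601 and 4307. Nanog lies on chromosome 6 and Sox1 and Zfp42 on chromosome 8, which had excess peaks in the edited line, and the part of this in their ranks was not tested.

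Klf4, a naive pluripotency factor, showed the widest gap of the list. It ranked 7479 in SOX2-ON against 12551 in SOX2-OFF and 16546 in CEpiLC, 2.21-fold apart between SOX2-ON and CEpiLC. Ranked by fold enrichment it was at 18448 and 24218, and the 2-fold call was lost. Tfcp2l1, another naive factor, had SOX2-ON lowest, with 8187, 5129 and 4734, as did Lefty1, a NODAL antagonist, with 34026, 24292 and 27702. Ranked by fold enrichment, Tfcp2l1 was at 7058 in SOX2-ON and 2789 in SOX2-OFF, past the 2-fold rule. Esrrb ranked 14669, 13732 and 16672 and Sall4 9199, 10692 and 10005.

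Klf4 was the only call among the 12 genes. Between SOX2-ON and SOX2-OFF, 0 were higher in SOX2-ON and 0 in SOX2-OFF, against 3.48% and 4.74% of coding promoters. Between SOX2-ON and CEpiLC, 1 was higher in SOX2-ON (12.6%) and 0 in CEpiLC (12.1%). Between SOX2-OFF and CEpiLC, 0 were higher in SOX2-OFF (7.71%) and 0 in CEpiLC (6.43%). The order of Sox2, highest in SOX2-ON and lowest in CEpiLC, was shared by 27.8% of the 15452 coding genes with a promoter peak in all lists. Among those promoters the share ranked at least as high as Sox2 was 60.3% for SOX2-ON, 70.5% for SOX2-OFF and 71.0% for CEpiLC.

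**Figure D5:**
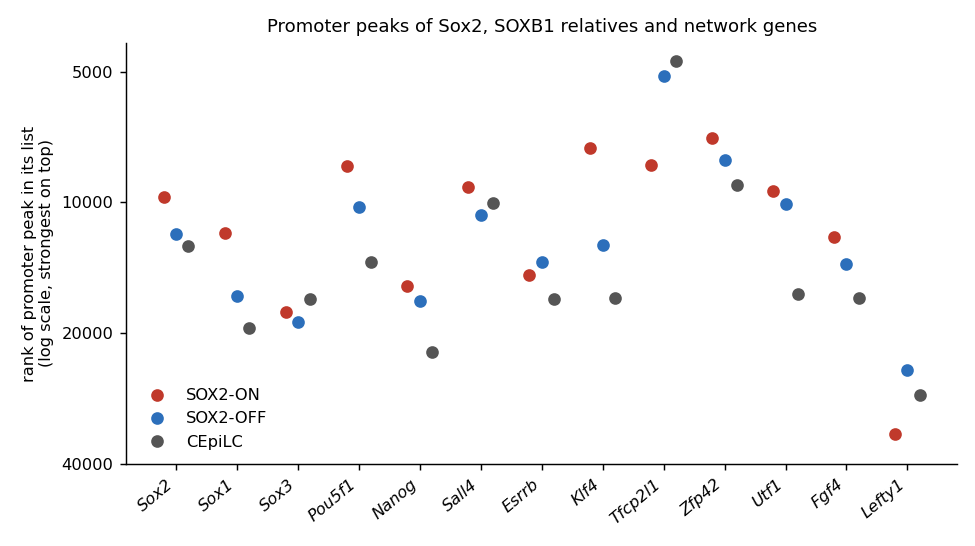
Rank of the best promoter peak within each list (log axis, strongest on top) for Sox2, its SOXB1 relatives and 10 network genes, with a point per sample. Sox2 lies at 9717 in SOX2-ON against 11791 in SOX2-OFF and 12565 in CEpiLC, Klf4 shows the widest gap, and Tfcp2l1 and Lefty1 have SOX2-ON lowest.

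The promoters most like that of Sox2 over the 3 lists, by Euclidean distance of log2 rank among 15451 other coding genes, were those of Pop5, Lrsam1, Rpl12, Rgs6 and 2510039O18Rik, at distances of 0.0391 to 0.0516. The promoter of Pop5, for example, ranked 9777 for SOX2-ON, 11737 for SOX2-OFF and 12243 for CEpiLC. Lrsam1 and Rpl12 share a promoter peak. With 3 lists, nearness of rank over so many genes is a description only.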

How the data were processed

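ATAC-seq was carried out on 3 samples, 1 per group, grouped by the genotype and doxycycline treatment in the labels. The authors ran the nf-core/atacseq pipeline, which aligned reads to mm10 with BWA, dropped reads from mitochondria, called broad peaks by MACS2 and gave the 1 list deposited per sample. For each peak the deposited values are a fold enrichment (a ratio to local background), a −log10 p, a −log10 q and a score that was not used. All lists ended at a q of 0.1. Read totals were not used here, and how cut positions were shifted is not given in the sources used here, so peak edges are approximate. Peaks were ranked within each list by −log10 p. Regions, ranks, widths, motif words and promoter ranks were computed with Python 3.11.15 and pandas 2.3.3, checked on simulated peaks, with GENCODE M21 and GRCm38.p6. Fully described regions were those in the strongest 20000 of a list, over the Sox2 start, 90 to 130 kb downstream, or 2-fold apart in rank within a strongest 50000. The 5 nearest genes followed log2 rank distance. Alternatives were a −log10 q of at least 2 or 5, windows of 100 and 200 kb, presence at 50% of a region, ranking by fold enrichment, within chromosome 3 or without chromosomes 6, 8 and 11, a 3-fold rule, 200-base motif windows, a motif mismatch and promoters of 1000 bases either side. Members and lists were chosen with earlier results of these data known. The sequence of 1 region is not reported here.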

Additional observations from a re-analysis of the deposited data

How the results depend on the processing

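No paired analysis was possible because there was 1 sample per group, and for the same reason no replicate could be left out. Of 49 recomputed counts, 29 stayed within 1.5 times the reported count and 20 moved. A −log10 q of at least 5 left 11 peaks at the locus for SOX2-ON, 8 for SOX2-OFF and 5 for CEpiLC, with 5 regions in all 3 lists, 1 in SOX2-OFF only and 0 in CEpiLC only. A −log10 q of at least 2 left 3 regions in SOX2-ON only, 4 in SOX2-OFF only and 2 in CEpiLC only. Requiring a list to cover 50% of a region left 6 regions in all 3 lists and 5 in SOX2-OFF only. Joining peaks within 500 bases, chosen after seeing the data, gave 11 regions in all 3 lists and 5 in SOX2-ON only, against 10 and 6 as reported. It joined the region at +7 kb to the weak SOX2-ON peak 300 bp before it. All counts stayed within 1.5 times. Ranking by fold enrichment gave 2 regions 2-fold apart between SOX2-ON and CEpiLC (+42 and +145 kb) and 2 between SOX2-OFF and CEpiLC (+42 and −8 kb), and among listed promoters 1 between SOX2-ON and SOX2-OFF (Tfcp2l1, 7058 against 2789) and 0 between SOX2-ON and CEpiLC. Leaving out chromosomes 6, 8 and 11, or a 3-fold rule, gave 0 regions in both comparisons with CEpiLC. The OCT-SOX core with 1 mismatch was in 6 regions. Read totals were not used here, so how far depth limits the absence of a peak was not measured.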
